A study of Mus musculus with 2 samples.

Results

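The genes of TGF-beta and BMP signalling described here are 41 ligands, ligand regulators, receptors, SMADs, inhibitors and target genes, out of 20660 genes named on the arrays. They were taken from a written list of gene symbols, and every probe whose RefSeq accession carries one of these symbols was used. All 41 had a probe, 57 probes in all, with several probes for 15 members and 1 probe for 26. By the signalling branch they are best known for, 21 belong to the TGF-beta/activin branch, 16 to the BMP branch and 4 to both.

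RNA of mouse lung epithelial cells labelled Mob1DKO was compared with RNA of lung epithelial cells labelled wild type (WT), on 1 Agilent 1-colour array each, and the question asked is how gene expression differs between these mice. Mice of both groups were C57BL/6 and aged 10 weeks, by their labels. Mob1DKO is read here, from knowledge of the mouse line and not from the labels, as loss of Mob1a and Mob1b, which encode adaptors for LATS kinases in Hippo signalling. The driver and timing of any deletion, the sex of the animals and the number pooled are not given in the sources used here. With 1 array per group there are no replicates, so no p-values are given and precision is limited by the number of arrays.

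A level is the log2 processed signal of a probe minus the 75th percentile of all non-control probes on that array, and a difference is Mob1DKO minus WT on that scale. By the scanner software's flag, 58.6% of 55681 Mob1DKO probes and 53.1% of WT probes were well above background. The 75th percentile of the signal was 291 for Mob1DKO and 155 for WT, whereas 8 added spike-in transcripts had a median ratio of WT over Mob1DKO signal of 2.5, so differences are relative to the other genes and say nothing of RNA per cell. Mob1b had a level of -2.98 in Mob1DKO cells, against -0.98 in WT cells. Mob1a had -2.49 in Mob1DKO cells, against -2.56 in WT cells, and the place of its single probe relative to a deleted part is not given here, so that value checks nothing. Technical error was taken from probes printed at 10 spots, as the SD of a difference between single spots. It was 0.089 for probes at or above the 75th percentile (169 probes), 0.25 for levels from -2 to 0 (61 probes) and 0.56 for fainter probes still above background (60 probes). These SDs leave out the spread between animals and RNA preparations.

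TGF-beta and BMP ligands are secreted dimers that bring together type 1 and type 2 receptor kinases. TGF-beta and activin receptors phosphorylate SMAD2 and SMAD3, BMP receptors phosphorylate SMAD1 and SMAD5, and both kinds of SMAD enter the nucleus with the shared partner SMAD4. TGF-beta is stored in the matrix in a latent complex and must be released, BMPs are held back by secreted antagonists, and both branches switch on their own inhibitors. In the lung, BMP4 takes part in distal epithelial development, and TGF-beta is known for driving matrix production and for restraining epithelial growth.

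The pathway genes lay at nearly the same level on both arrays. Of the 41, 40 stood well above background on 1 or both arrays and 38 on both. By a 2-fold rule, with the brighter array well above background, 1 member was higher in Mob1DKO cells, the ligand gene Bmp7, and none was lower, which is 2.5% of 40 where 6.70% of 15099 measured genes passed. No test was possible with 1 array per group. Bmp7 and Ski were above background on the Mob1DKO array only, so they could pass the filter only where they were brighter.

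The 38 members seen on both arrays differed by -0.54 (Ltbp1) to 0.44 (Acvr1), and all 38 stayed under 1.5-fold. Counting the one-array genes, Bmp7 was again the only member past 1.5-fold, 1 of 40 higher and none lower, where 15.0% of measured genes passed, 8.15% higher and 6.86% lower. Among all genes above background on both arrays, 89.9% had a difference that small. Their median difference was 0.08, beside 0.01 over all such genes, and 25 of the 38 lay above 0 (65.8%), beside 51.8% of all genes. To read a difference against genes of like brightness, the 5th to 95th percentile was taken over genes whose mean level lay within 0.5 of the member's. Outside that range lay 2 of 38 members (5.26%), Acvr1 above it and Inhba below it, beside 9.90% of all genes, 4.93% above and 4.98% below.

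**Figure D1:**
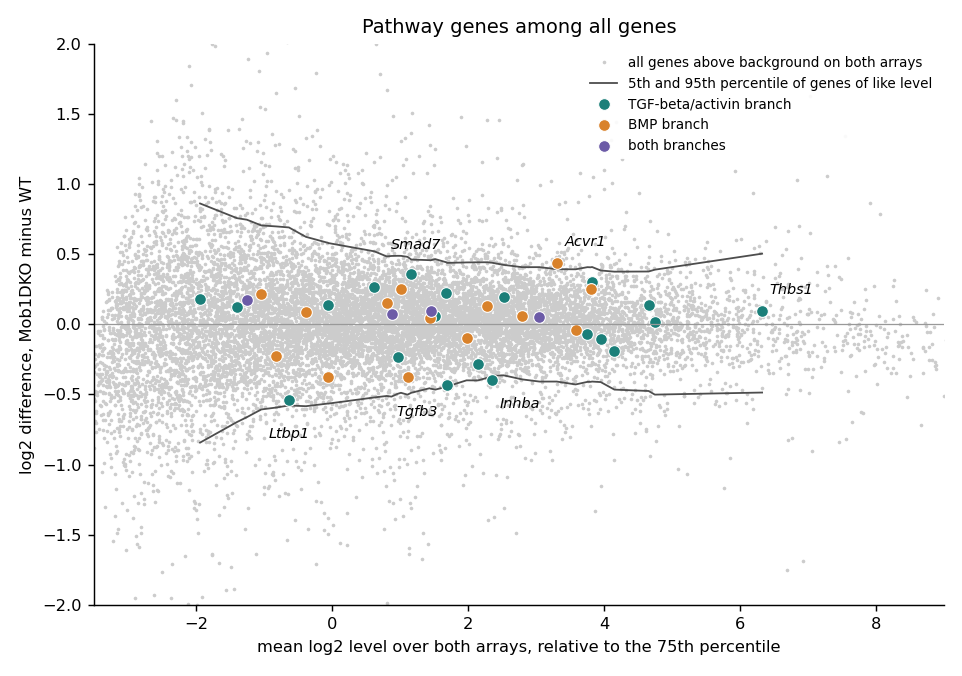
Difference (Mob1DKO minus WT, log2) against mean level over both arrays for 38 pathway genes, coloured by branch, over all genes above background on both arrays in grey. The black lines join the 5th and 95th percentiles of genes of like level, computed at each member's own level, and the pathway genes lie between -0.54 and 0.44.

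The branches were set side by side next. The TGF-beta/activin branch had a median difference of 0.10 over 21 measured members, and the BMP branch 0.09 over 15, both close to the 0.02 of all measured genes. Over members seen on both arrays the medians were 0.08 for 20 TGF-beta/activin genes and 0.07 for 14 BMP genes, with 12 of 20 and 9 of 14 above 0. The TGF-beta/activin median minus the BMP median was 0.01. That gap turned to -0.13 when the probes of a gene were averaged. It turned to -0.18 when 7 genes treated as shared were taken out of the branches, so its direction rested on these choices. The 7 genes were Skil, Ski, Tgif1, Smad7, Fst, Thbs1 and Bmp3. None of these medians is a test.

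**Figure D2:**
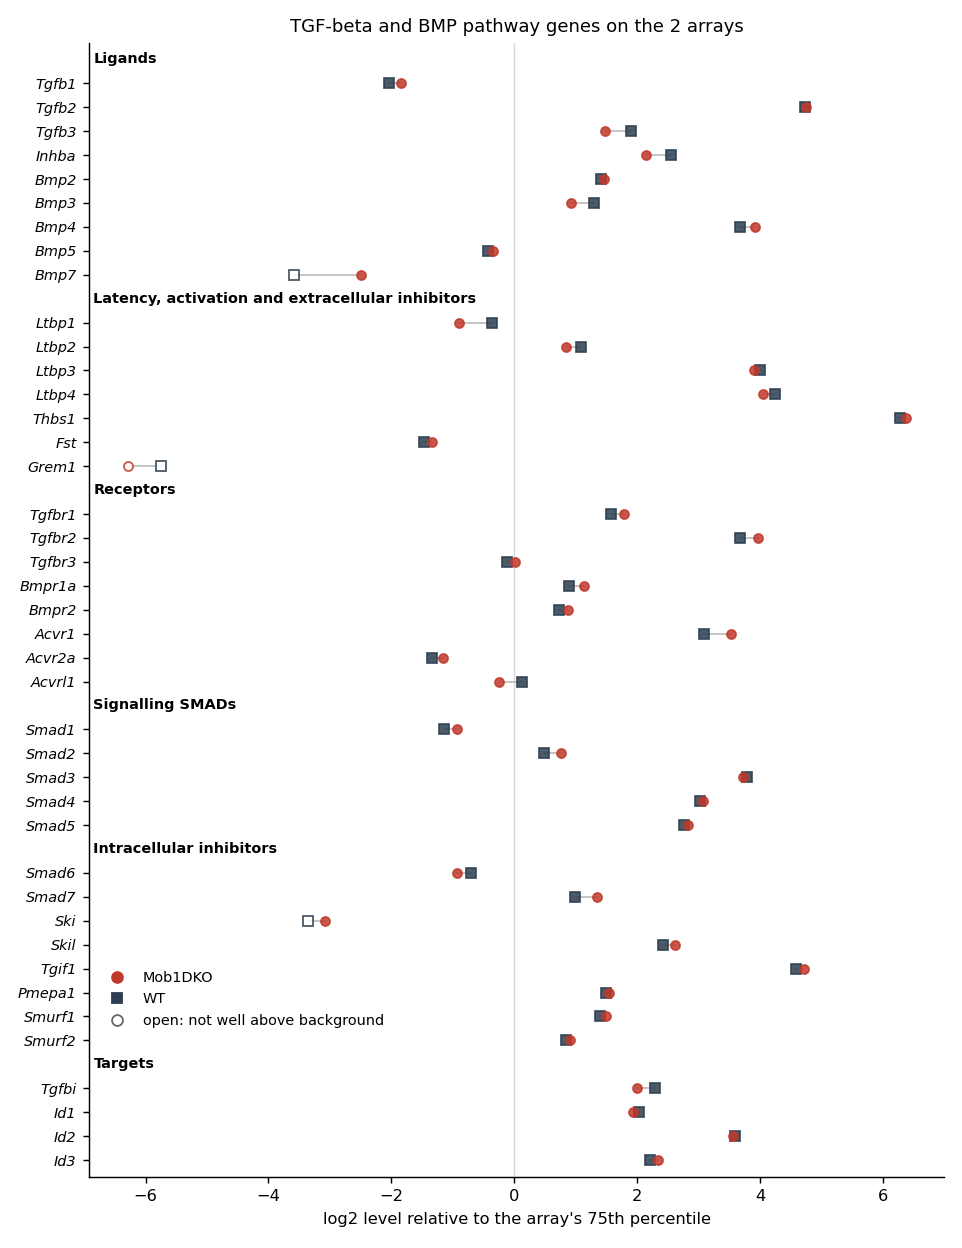
Level of each of the 41 pathway genes in Mob1DKO cells (red circles) and WT cells (dark squares), as log2 relative to the 75th percentile of each array, grouped by role. Open symbols are not well above background; the widest gap among genes seen on both arrays is that of Ltbp1, at -0.90 and -0.37. Rows show different probes, so levels cannot be compared between genes.

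Of the 9 ligand genes, 8 were seen on both arrays, with 5 above 0 and 3 below. The TGF-beta genes did not share a direction. Tgfb1, which encodes the isoform most studied in immunity and fibrosis, had a level of -1.85 in Mob1DKO cells and -2.03 in WT cells. Tgfb2 had 4.75 in Mob1DKO cells and 4.73 in WT cells, a difference of 0.02 that is inside the technical SD. Its dimmer second probe had 2.84 in Mob1DKO cells and 3.06 in WT cells, a difference of -0.22, so the direction of Tgfb2 depended on the probe. Tgfb3 had the widest gap of the 3, with 1.47 in Mob1DKO cells and 1.91 in WT cells. Inhba, whose product dimerises to activin A, had 2.15 in Mob1DKO cells and 2.55 in WT cells, a difference of -0.40. For genes of like level the 5th percentile was -0.37, so Inhba lay just outside that range and Tgfb3, at -0.43 beside -0.44, just inside it.

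Tgfb1, Tgfb3 and Skil were each printed at 10 spots, which shows their spot error directly. The Tgfb3 spots averaged 1.47 ± 0.07 in Mob1DKO cells and 1.91 ± 0.05 in WT cells (SD over 10 spots), and all 10 Mob1DKO spots lay below every WT spot. The Tgfb1 spots averaged -1.86 ± 0.16 in Mob1DKO cells and -2.07 ± 0.37 in WT cells, and their ranges overlapped. Spots for Skil, a SMAD corepressor gene described below, averaged 2.62 ± 0.08 in Mob1DKO cells and 2.42 ± 0.07 in WT cells, with 9 of 10 Mob1DKO spots above every WT spot. Spots on an array share 1 RNA sample, so a clean split between them shows that the 2 hybridisations differ for that probe and not that the genotypes do.

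**Figure D3:**
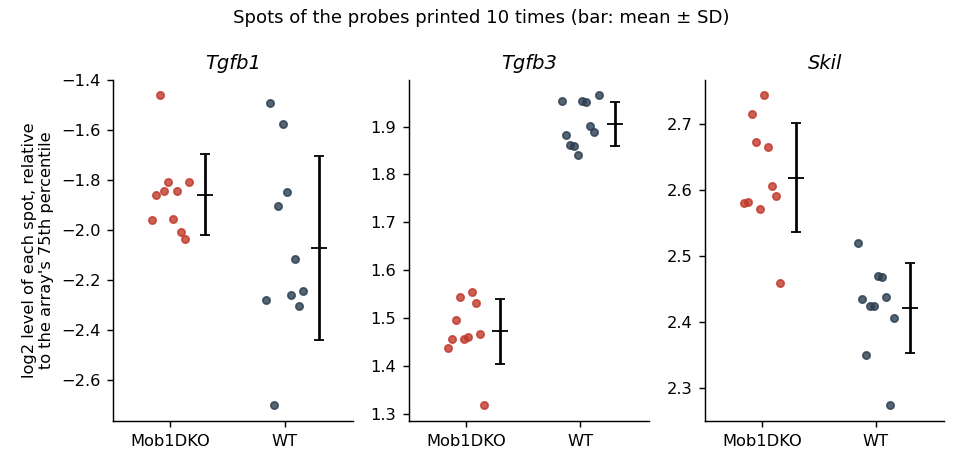
Level of each of the 10 spots of the Tgfb1, Tgfb3 and Skil probes for Mob1DKO (left, red) and WT (right, dark), with the mean and SD over spots as bars. The vertical scales differ; Tgfb3 is lower on the Mob1DKO array at all 10 spots, and the Tgfb1 spots overlap.

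Bmp7, a ligand with roles in epithelial differentiation and kidney development, was the one member past the 2-fold rule. Its level was -2.49 in Mob1DKO cells, against -3.59 in WT cells, where its single probe was not well above background. Set against the lowest WT level that was well above background, -3.45, it was at least 1.95-fold higher in Mob1DKO cells. The difference of 1.1 compares with a technical SD of 0.56 at that brightness, and it turned to -0.11 under a model-based background correction (normexp). That correction adds an offset of 50 to each signal before scaling, and the Bmp7 signals were 52.0 in Mob1DKO cells and 12.9 in WT cells. It also started from the median spot signal and not from the processed signal, and the part of the offset in this turn was not tested. Bmp7 rests on a faint signal on both arrays.

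The other BMP ligand genes differed less. Bmp2, with 1.46 in Mob1DKO cells and 1.41 in WT cells, and Bmp5, with -0.34 in Mob1DKO cells and -0.43 in WT cells, were within the technical SD. Bmp4, the ligand of distal lung epithelium, had 3.93 in Mob1DKO cells and 3.67 in WT cells, a difference of 0.25 beside a technical SD of 0.089. A second Bmp4 probe gave only background signal. Bmp3, an atypical member that can oppose other BMPs, had 0.92 in Mob1DKO cells and 1.30 in WT cells. That difference of -0.38 was larger than the technical SD and inside the range of genes of like level.

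Of the 6 measured genes that store, release or trap the ligands, 4 lay below 0, with a median of -0.14. That median was -0.06 with the mean over probes. Of all genes above background on both arrays, 51.8% lay above 0. All 4 latent TGF-beta binding protein genes, which tether latent complexes or, for Ltbp2, help build elastic fibres, had differences below 0, from -0.54 to -0.10. Ltbp1 had the widest gap, at -0.90 in Mob1DKO cells and -0.37 in WT cells, a difference of -0.54 beside a technical SD of 0.25. Ltbp2 had 0.85 in Mob1DKO cells and 1.08 in WT cells. Ltbp3 had 3.90 in Mob1DKO cells and 4.0 in WT cells, and Ltbp4 4.06 in Mob1DKO cells and 4.24 in WT cells. A second Ltbp3 probe also lay below 0, at -0.06, while a second Ltbp4 probe lay above it, at 0.12.

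Thbs1, which encodes thrombospondin 1, an activator of latent TGF-beta and a gene also known as a YAP target, had 6.37 in Mob1DKO cells and 6.27 in WT cells. Fst, whose product follistatin neutralises activin, had -1.34 in Mob1DKO cells and -1.46 in WT cells, inside its technical SD. Grem1, a BMP antagonist gene of mesenchymal cells, did not stand well above background in either sample, at -6.29 in Mob1DKO cells and -5.75 in WT cells.

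The receptor genes had a median of 0.20, or 0.11 with the mean over probes. Of the 8, 7 lay above 0, beside 51.8% of all genes seen on both arrays. Acvr1, a type 1 receptor gene for BMPs (ALK2), showed the widest gap. It had 3.52 in Mob1DKO cells and 3.08 in WT cells, a difference of 0.44, above the 0.39 that marks the 95th percentile of genes of like level. Its second probe was also brighter on the Mob1DKO array, by 0.40, which makes Acvr1 the member with the clearest accord between probes. Bmpr1a, the type 1 receptor gene ALK3, had 1.14 in Mob1DKO cells and 0.89 in WT cells, and the type 2 receptor gene Bmpr2 had 0.88 in Mob1DKO cells and 0.73 in WT cells.

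On the TGF-beta side, Tgfbr1 had 1.79 in Mob1DKO cells and 1.57 in WT cells, and Tgfbr2 had 3.97 in Mob1DKO cells and 3.67 in WT cells. Each of these kinase receptor genes had a dimmer second probe of the opposite sign, at -0.36 for Tgfbr1 and -0.13 for Tgfbr2. Their direction therefore depended on the probe. The co-receptor gene Tgfbr3 (betaglycan) had 0.01 in Mob1DKO cells and -0.13 in WT cells, and Acvr2a, a type 2 receptor gene for activins and BMPs, had -1.17 in Mob1DKO cells and -1.34 in WT cells. Both differences were within the technical SD.

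Acvrl1 (ALK1), a receptor gene known from endothelial cells, was the 1 receptor gene below 0, with -0.25 in Mob1DKO cells and 0.13 in WT cells. Of 12 endothelial markers listed, 7 were measured, with 3 above 0, 4 below and a median difference of -0.15. All 12 together summed to 32.9 in Mob1DKO cells and 45.9 in WT cells, in multiples of the 75th percentile. Kdr alone gave 24.7 of that sum in Mob1DKO cells and 37.5 in WT cells. The level of Kdr was 4.63 in Mob1DKO cells and 5.23 in WT cells, and that of Esam, the next brightest, 2.39 in Mob1DKO cells and 2.54 in WT cells. Named here after their values were seen, Flt1 (0.98), Egfl7 (0.53) and Pecam1 (0.12) had differences above 0. Cdh5, Tek, Tie1, Cldn5 and Emcn did not stand well above background in either sample. The part of endothelial RNA in the Acvrl1 difference was not tested, and in bulk RNA fewer cells of a type and less RNA per cell cannot be told apart.

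The 5 signalling SMAD genes stayed close together on the arrays, with a median of 0.06. Smad2 had the largest difference, with 0.76 in Mob1DKO cells and 0.49 in WT cells. Smad3 had 3.72 in Mob1DKO cells and 3.79 in WT cells, and its second probe also lay below 0, at -0.20. The shared partner Smad4 had 3.07 in Mob1DKO cells and 3.02 in WT cells, with a second probe of nearly equal brightness at 0.28. For the BMP SMADs, Smad1 had -0.93 in Mob1DKO cells and -1.15 in WT cells, and Smad5 had 2.82 in Mob1DKO cells and 2.77 in WT cells. The dimmer Smad1 probe had the opposite sign, at -0.45, so no direction can be given for Smad1. The dimmer Smad5 probe lay on the same side of 0, at 0.66.

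**Figure D4:**
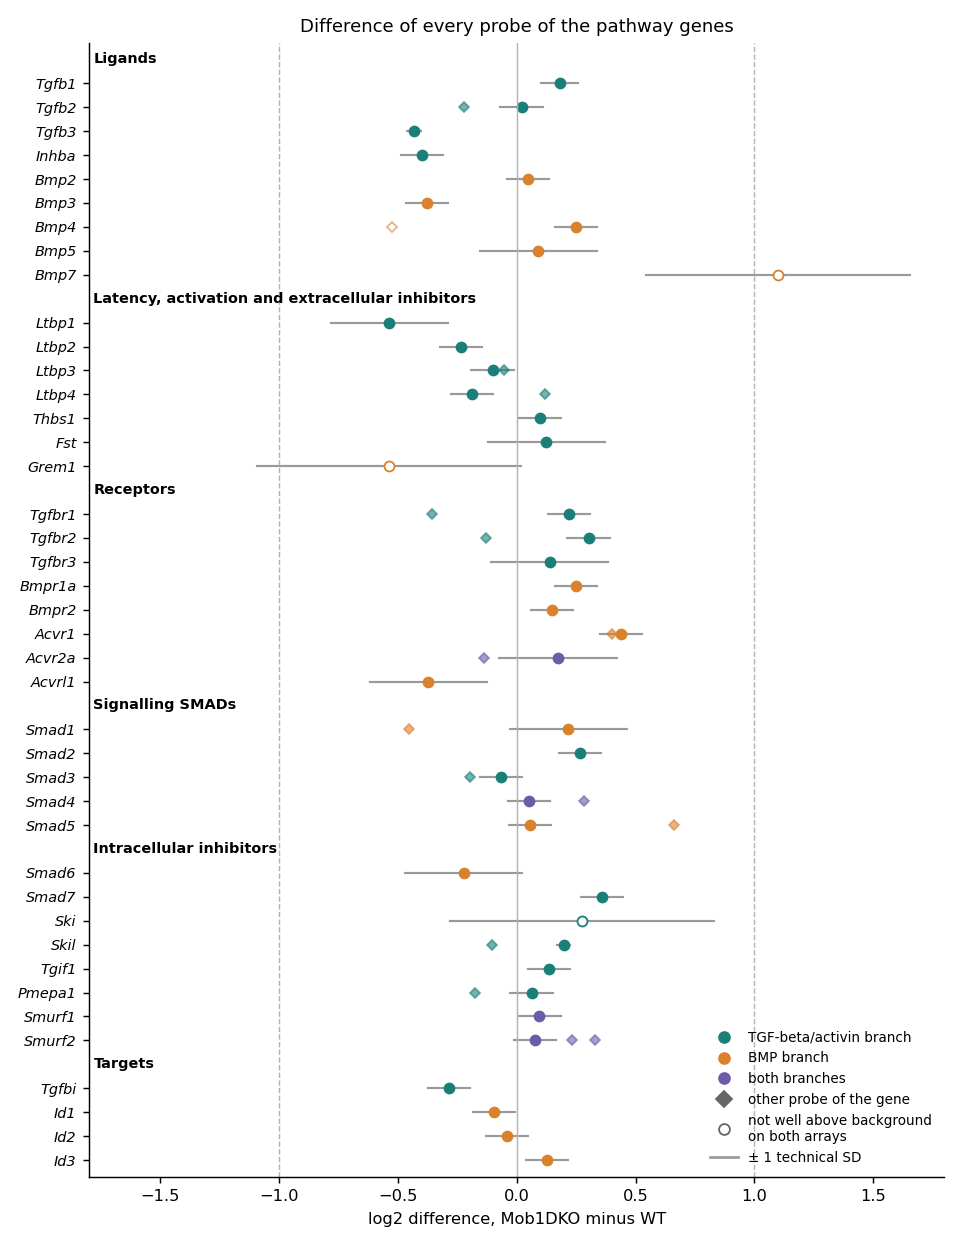
Difference (Mob1DKO minus WT, log2) of all 57 probes of the 41 pathway genes, with the probe used for each gene as a circle and its other probes as diamonds, coloured by branch. Grey bars are 1 technical SD of the probe used, dashed lines mark 2-fold, and the probe of Bmp7 alone lies past them.

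Of the 8 genes of intracellular inhibitors, 7 were seen on both arrays. Of these, 6 lay above 0, beside 51.8% of all genes seen on both arrays. The inhibitory SMAD genes, which each pathway switches on to limit itself, lay on opposite sides of 0. Smad7, induced by TGF-beta, had 1.34 in Mob1DKO cells and 0.98 in WT cells, a difference of 0.36 beside a technical SD of 0.089. Smad6, induced by BMPs, had -0.94 in Mob1DKO cells and -0.71 in WT cells, inside its technical SD of 0.25. The SMAD corepressor gene Skil, itself a TGF-beta target, had 2.62 in Mob1DKO cells and 2.42 in WT cells, and its second probe lay at -0.10. Its relative Ski had -3.07 in Mob1DKO cells and -3.35 in WT cells, where it was not well above background. That difference of 0.27 was inside its technical SD of 0.56, and the model-based correction gave -0.44 in its place. The offset of 50 in that correction exceeds both Ski signals, 34.6 in Mob1DKO cells and 15.2 in WT cells.

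The remaining inhibitor genes differed by 0.14 or less. Tgif1, a homeodomain corepressor gene, had 4.72 in Mob1DKO cells and 4.58 in WT cells. Pmepa1, a TGF-beta target whose product binds receptor SMADs, had 1.55 in Mob1DKO cells and 1.49 in WT cells. Its second probe had the opposite sign, at -0.18. The ubiquitin ligase gene Smurf1 had 1.5 in Mob1DKO cells and 1.40 in WT cells, and Smurf2 had 0.91 in Mob1DKO cells and 0.84 in WT cells. All 3 Smurf2 probes lay above 0, between 0.08 and 0.33.

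Target genes report on signalling more directly than the genes of the pathway itself. Id1, Id2 and Id3 encode helix-loop-helix proteins that block other transcription factors and are rapid BMP targets in many cell types. Id1 had 1.93 in Mob1DKO cells and 2.02 in WT cells, and Id2 had 3.56 in Mob1DKO cells and 3.6 in WT cells. Id3 had 2.34 in Mob1DKO cells and 2.21 in WT cells. The 3 differences, between -0.10 and 0.13, were under or near the technical SD and went both ways. Tgfbi, an extracellular matrix protein gene named for its induction by TGF-beta, had 2.0 in Mob1DKO cells and 2.28 in WT cells, a difference of -0.29. It thus lay on the other side of 0 from Smad7 and Skil, which TGF-beta also induces.

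Promoter windows of Id2, Id3 and Smad6 are shown because these BMP-induced genes are the nearest readouts of the SMAD1/5 branch and their differences were small, at -0.04, 0.13 and -0.22. They are from RefSeq on build GRCm38.p6, with 250 bases before and 50 after the gene start, 5' to 3' on the gene's strand. Capitals mark GGCGCC, a GC-rich SMAD motif, and GTCT or its complement AGAC, the core of the SMAD binding element, found by letter match on both strands. The window of Id2 is chr12:25096043-25096342 on the minus strand, that of Id3 is chr4:136143572-136143871 on the plus strand, and that of Smad6 is chr9:64022010-64022309 on the minus strand.
Id2: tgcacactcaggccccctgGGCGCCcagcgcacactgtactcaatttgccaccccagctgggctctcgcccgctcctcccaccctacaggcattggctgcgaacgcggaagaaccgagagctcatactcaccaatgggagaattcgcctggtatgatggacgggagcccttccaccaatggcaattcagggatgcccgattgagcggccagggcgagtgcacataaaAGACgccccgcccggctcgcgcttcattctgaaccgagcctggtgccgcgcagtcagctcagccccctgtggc
Id3: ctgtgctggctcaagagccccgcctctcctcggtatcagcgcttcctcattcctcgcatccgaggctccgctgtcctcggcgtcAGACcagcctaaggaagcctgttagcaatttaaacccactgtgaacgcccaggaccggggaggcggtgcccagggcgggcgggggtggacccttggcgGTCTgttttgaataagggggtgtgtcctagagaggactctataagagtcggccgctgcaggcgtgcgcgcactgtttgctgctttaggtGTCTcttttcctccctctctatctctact
Smad6: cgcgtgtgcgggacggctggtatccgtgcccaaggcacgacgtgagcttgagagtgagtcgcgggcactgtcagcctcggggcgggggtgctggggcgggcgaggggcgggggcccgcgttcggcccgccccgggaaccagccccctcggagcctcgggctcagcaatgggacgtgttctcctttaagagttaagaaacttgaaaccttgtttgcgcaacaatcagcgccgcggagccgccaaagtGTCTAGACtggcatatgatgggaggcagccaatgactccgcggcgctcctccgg
The Id2 window holds 1 GGCGCC, which 11.9% of 32534 RefSeq windows of this length hold, and 1 core. The Id3 window holds no GGCGCC and 3 cores, and 88% of all windows hold at least 1 core. The Smad6 window holds the palindrome GTCTAGAC, which contains both core letters and occurs in 0.215% of all windows, across the gene start. Of the 41 members, 27 had a window in the table, and Smad6 was the 1 with this palindrome, while 10 had GGCGCC. A match is a description of letters and not of binding.

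Several probes of a gene gave a check that 1 probe cannot. Of 14 members with more than 1 probe above background on both arrays, 6 had probes of 1 sign, namely Acvr1, Ltbp3, Smad3, Smad4, Smad5 and Smurf2. The other 8 had probes of both signs. The median gap between the lowest and highest probe of a gene was 0.28, which is as large as most of the differences between the arrays. Only for Acvr1 did every probe exceed 0.40 in the same direction.

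The rest of the pathway was examined through a list of 87 further ligand, receptor, regulator and target genes. Of these, 75 were measured, with a median difference of 0.03 beside 0.02 over all measured genes. By the 2-fold rule 4 were higher in Mob1DKO cells and 1 was lower, where 3.79% and 2.91% of all measured genes were called in those directions. Past 1.5-fold lay 10 higher and 8 lower of the 75, beside 8.15% and 6.86% of all measured genes. Nrros, which encodes a protein that anchors latent TGF-beta on myeloid cells, was 2.93-fold higher, at -0.29 in Mob1DKO cells and -1.84 in WT cells. Chrdl2, a chordin-like BMP antagonist gene, was at least 5.42-fold higher and Gdf7, a BMP family ligand gene, at least 2.19-fold higher, both being well above background in Mob1DKO cells only.

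Bmp6 also passed the rule, but its level of -3.55 in Mob1DKO cells lay below the faintest WT signal counted as above background, so no fold is given. Bmper, a secreted BMP regulator gene, was 2.07-fold lower, at -2.40 in Mob1DKO cells and -1.35 in WT cells. Under the model-based background correction 2 of the 75 measured were higher and none lower, where 271 of 15099 measured genes were called in either direction. Taking the 2 brightest genes of each of its 5 sublists, 4 of 10 were past 1.5-fold and 6 were not. The ligand genes Gdf15 (0.04) and Inhbb (0.06), the type 2 receptor gene Acvr2b (0.20), the procollagen and chordin protease gene Bmp1 (0.29), the BMP antagonist gene Nbl1 (-0.20) and the coactivator gene Crebbp (-0.19) were under it.

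Tdgf1, Fkbp1a, Ccn2 and Tagln were past it. Tdgf1, an EGF-CFC co-receptor gene for nodal, fell just short of the rule, with 3.55 in Mob1DKO cells and 2.55 in WT cells. Fkbp1a, which encodes a protein that binds the TGF-beta type 1 receptor, had 7.49 in Mob1DKO cells and 8.12 in WT cells. The brightest targets were split, with Ccn2, a target of TGF-beta and of YAP, at 4.74 in Mob1DKO cells and 4.13 in WT cells, and Tagln, a smooth muscle gene, at 3.66 in Mob1DKO cells and 4.63 in WT cells. Named here after their values were seen, the activating integrin subunit gene Itgb6 had 2.28 in Mob1DKO cells and 2.82 in WT cells, and the endothelial co-receptor gene Eng had -3.20 in Mob1DKO cells and -2.43 in WT cells.

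Tagln and the latent TGF-beta binding protein genes are also made by fibroblasts and smooth muscle, so those markers are given beside them. All 15 listed were measured, and they summed to 149 in Mob1DKO cells and 164 in WT cells. Their median difference was -0.25, with Dcn at 0.18, Msln at -0.25, Cspg4 2.57-fold lower and Lum at least 2.22-fold higher. Of the 14 seen on both arrays 5 lay above 0 and 9 below. Named here after their values were seen, the smooth muscle actin gene Acta2 had 2.75 in Mob1DKO cells and 3.72 in WT cells, a difference of -0.97, and the collagen gene Col3a1 had 2.09 in Mob1DKO cells and 2.76 in WT cells. Of the same list and named likewise, Myh11 (0.06), Col1a1 (0.02), Pdgfra (0.13) and Wt1 (0.52) lay above 0. Of 9 leukocyte markers on the array 6 were measured. The 9 summed to 248 in Mob1DKO cells and 256 in WT cells, of which Itgam alone gave 236 and 244. The brightest of these markers, Itgam and Csf1r, differed by -0.05 and -0.01, and Cd79a was at least 3.38-fold higher. Ptprc, Cd53 and Laptm5 were not well above background. All 13 markers of the labelled cell type, lung epithelium, were measured and summed to 5657 in Mob1DKO cells and 8505 in WT cells. That sum was carried by Sftpc (-0.78) and Scgb1a1 (-0.84), and Krt5 was 7.43-fold lower. The 20 brightest of all genes had a median difference of -0.59, so lower values at the highest levels are not particular to these markers. The list's median difference was -0.09, with 5 of 13 above 0 and 8 below, and Foxj1 (0.65), Hopx (0.43), Ager (0.42) and Epcam (0.18), named here after their values were seen, lay above 0. The part of these cell types in the differences of the pathway genes was not tested.

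**Figure D5:**
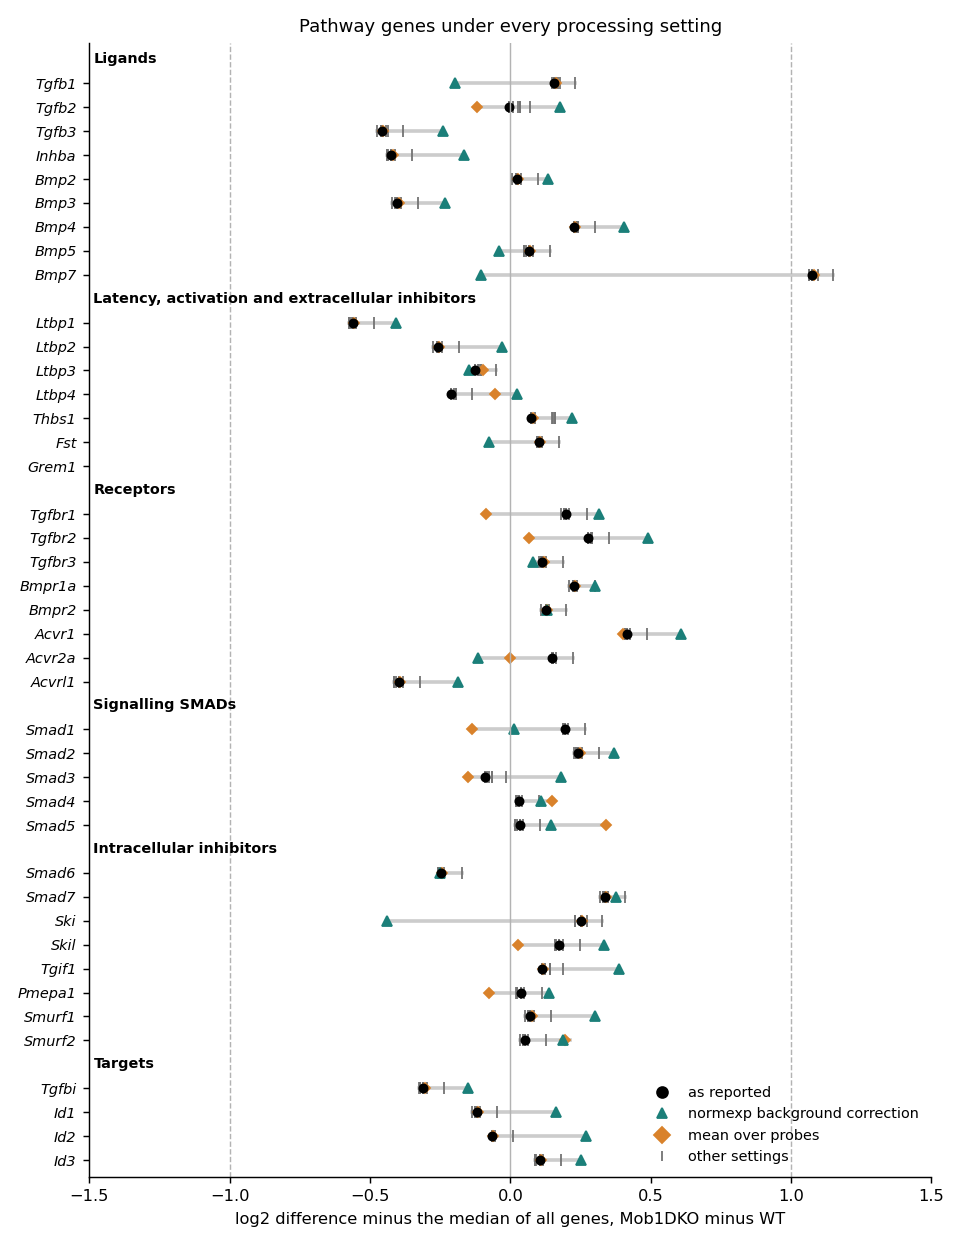
Difference of 40 pathway genes minus the median of all genes under each setting (Mob1DKO minus WT, log2), with the reported value in black, the model-based background correction as triangles and the mean over probes as diamonds. Bars span all settings for a gene; 26 of 40 keep 1 sign, Bmp7 alone reaches 1, and Grem1 has no row of values since it was not above background.

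Relative to the median of all genes, 26 of 40 members kept 1 sign over the 11 settings tried for single genes, and 14 took both signs. Acvr1 (0.40 to 0.61), Smad7 (0.32 to 0.41) and Bmpr1a (0.21 to 0.30) lay above 0 in each of these settings. Ltbp1 (-0.57 to -0.41), Tgfb3 (-0.47 to -0.24), Bmp3 (-0.42 to -0.23), Acvrl1 (-0.41 to -0.18) and Inhba (-0.44 to -0.17) lay below 0 in each. Id1, Id2, Smad3 and Tgfb1 were among those that took both signs, mainly under the model-based background correction. Beside the offset of 50 in that correction, Tgfb1 had signals of 80.8 in Mob1DKO cells and 37.9 in WT cells. In the same order, Id1 had 1108 and 630, Id2 3429 and 1878, and Smad3 3837 and 2138. The part of the offset in these changes of sign was not tested. By role, the receptor median stayed between 0.09 and 0.25 and that of the ligand-storing genes between -0.17 and -0.05, whereas the target median ran from -0.10 to 0.21.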

How the data were processed

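Per the labels, total RNA was amplified, labelled with Cy3 and hybridised. Per the file headers, the deposited intensity values come from Agilent Feature Extraction 10.7.1.1 with a 1-colour protocol on an mm9 grid; the version in the submitters' processing notes is 9.5.1.1. That deposited processed intensity is background-subtracted and detrended within an array, with no scaling between arrays. The deposited value table has no stated normalization. Its columns correlated across probes with their own arrays at 0.9998 (Mob1DKO) and 0.9995 (WT) and run in the direction of the labels' groups. Both had a median of 27.3, so they were not centred at 0 but were on a common scale. As a setting the value table gave nearly the values of quantile normalization, with Tgfb2 at 0.06 and Thbs1 at 0.18 in both. These settings are therefore not independent of each other.

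Repeated spots were averaged, control spots left out and log2 levels taken relative to the 75th percentile. Probes were named through RefSeq accessions in a GRCm38.p6 gene table (27235 named, 28446 unnamed). A gene with several probes took the brightest by mean level, leaving out probes at background on both arrays. A gene was called when its difference reached 1 in size and its brighter array was well above background. Where the dimmer array was not, the fold is a bound against the higher of its own value and the lowest level above background (-4.10 for Mob1DKO, -3.45 for WT). The calling was tested on simulated data.

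The members, gene lists, branches and rule for named genes were chosen with earlier results of these data known, and the range of genes of like level was added after the values were seen. All members are given. Of the other lists, called genes and the 2 brightest of each are named. Alternatives covered scaling, background correction (limma 3.58.1, normexp with offset 50 on the median spot signal, as the mean signal was not used here), the value table, several probes, outlier spots, filters, threshold and branch membership. No test was run, since no residual degrees of freedom remain with 1 array in each group.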

Additional observations from a re-analysis of the deposited data

How the results depend on the processing

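No paired analysis was possible because each group holds 1 array, and for the same reason no replicate could be left out. The count of 1 member higher fell to 0 under the model-based background correction, among genes above background on both arrays, and with one-array genes at their bound; the last follows from the bound of Bmp7 being under 2-fold. Under the model-based correction Bmp7 turned to -0.11, with an offset of 50 beside signals of 52.0 in Mob1DKO cells and 12.9 in WT cells. Over all genes, 271 of 15099 were called in either direction under that correction, and 674 of 15099 with one-array genes at their bound. Of 13866 genes above background on both arrays, 372 were called. Without scaling the count was 21 of 40 members, where 6323 of 15099 measured genes were called in either direction. Every gene then moved by 0.91. The median of all measured genes was then 0.93, of all members 1.0, of the TGF-beta/activin branch 1.01 and of the BMP branch 1.0. The TGF-beta/activin median turned to -0.035 with the mean or the median over probes, which put it at -0.13 from the BMP median, and to -0.066 with shared genes moved out of the branches, at -0.18 from the BMP median. No member was called lower in any of the 14 settings. Faint signal limits Bmp7, Ski and Grem1 in particular. Below a level of -2 a single-spot difference carries a technical SD of 0.56, so a difference of about that size cannot be told from spot error. The SD is not a detection limit, and the Bmp7 difference was 1.98 times its technical SD.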
